A study of Mus musculus with 10 samples.

Results

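Chaperone genes are described here by the state of their promoters in mouse neural stem and progenitor cells (NSPCs). They were taken as the protein-coding autosomal genes whose symbol begins with Hspa, Hspb, Hspd, Hspe, Hsph, Hsp90, Dnaja, Dnajb, Dnajc or Cct and a digit, without pseudogenes, and 83 of 20805 protein-coding autosomal genes met that rule. The rule uses gene names and no measured value, although it was set with earlier results of these data known. The name prefix also takes in some genes that are not chaperones themselves, such as Hspb11, a subunit of the transport machinery of cilia, and Hspbap1 and Hspbp1, which are named for binding a heat shock protein.

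NSPCs came from C57BL/6 brains at postnatal day 5. Activated NSPCs grew in Neurobasal A with B27 and 20 ng/ml each of FGF2 and EGF. Quiescent NSPCs had no EGF and received 20 ng/ml FGF2 and 25 ng/ml BMP4, for 4 days by the sample labels (the study's methods for ATAC-seq give a shorter time), and reactivated NSPCs went from that medium back to the growth medium for 9 to 12 days. ATAC-seq, which cuts open chromatin with the Tn5 transposase, was done on 2 biological replicates per state, and ChIP-seq of H3K4me3, a histone mark of active promoters, with 1 library and 1 input for each of the quiescent and activated states. Primary cultures of this kind hold stem and progenitor cells together, so a peak is a value over the mixture, and a change in the share of cells that are open cannot be told apart from a change in each cell.

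Chaperones bind proteins that are not folded and keep them from aggregating or help them to fold. HSP70 proteins do this in cycles of ATP hydrolysis that DNAJ proteins start and nucleotide exchange factors, such as the HSP110 proteins, reset. HSP90 acts later, on kinases and receptors among others, the chaperonins HSP60 with HSP10 (in mitochondria) and CCT (in the cytosol) enclose their clients, and small HSPs hold them without ATP. Heat shock factor 1 (HSF1) turns on many of these genes in stress through the heat shock element, and chaperones of the endoplasmic reticulum (ER) respond to unfolded proteins there through the ER stress response element. Quiescent and activated neural stem cells are known to differ in how they handle aggregated proteins, in lysosomes and proteasomes.

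The value of a promoter in a library was the highest fold enrichment of the peaks that overlap 1 kb on either side of any of its transcription start sites (TSSs). Fold enrichment is the pileup of reads at the peak over the background of the same library. The 2 reactivated lists, with 106586 and 107137 peaks, stood apart from the 4 others, which held 47323 to 60881, and median fold enrichment over the promoters tested was 11.9 and 12.6 in the reactivated libraries against 7.81 and 7.68 for the quiescent state and 9.39 and 7.97 for the activated one. Quiescent replicate 2 had the highest background pileup, at 12.1 reads against 6.01 to 6.61 in the 5 others, so that its lowest called pileup was 25 reads and theirs 16 or 17. The promoters of all 10 listed NSPC markers, among them Sox2 and Nes, had an ATAC peak in all 6 libraries. Of the 6 markers of microglia and blood, 5 had no peak in any library and Cx3cr1 had 1, at 2.5 in quiescent replicate 1. No endothelial marker of 4 had a peak in all 6, but Kdr, which has H3K4me3 in both states, had a peak in 5. Of 4 fibroblast markers, Col1a1 and Pdgfra were open in all 6, Dcn in the 2 reactivated libraries only (3.2 and 3.59) and Lum in none. Of 4 neuronal markers, Snap25, Syt1 and Tubb3 were open in all 6.

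Most chaperone promoters were open in every state. A peak was present in all 6 libraries at 67 of 83 members (80.7%), against 54.5% of all protein-coding autosomal genes. In both quiescent libraries 70 members had a peak (background 56.9%), in both activated libraries 69 (background 57.4%), and in both reactivated libraries 76 (background 66.5%). The higher count in reactivated NSPCs went with the longer lists. With each list held to the 47323 peaks of highest fold enrichment, both reactivated libraries covered 70 members, the quiescent 70 and the activated 67. The share of all genes with lists of that length is not given, and the part of list length was not tested. H3K4me3 was present in both states at 72 members, or 86.7%, against 61.1% of all genes. The open members were strong as well as frequent: their median peak stood at the 88.0 to 91.5 percentile of its own list, and the median promoter peak of all genes at 82.3 to 89.0.

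**Figure D1:**
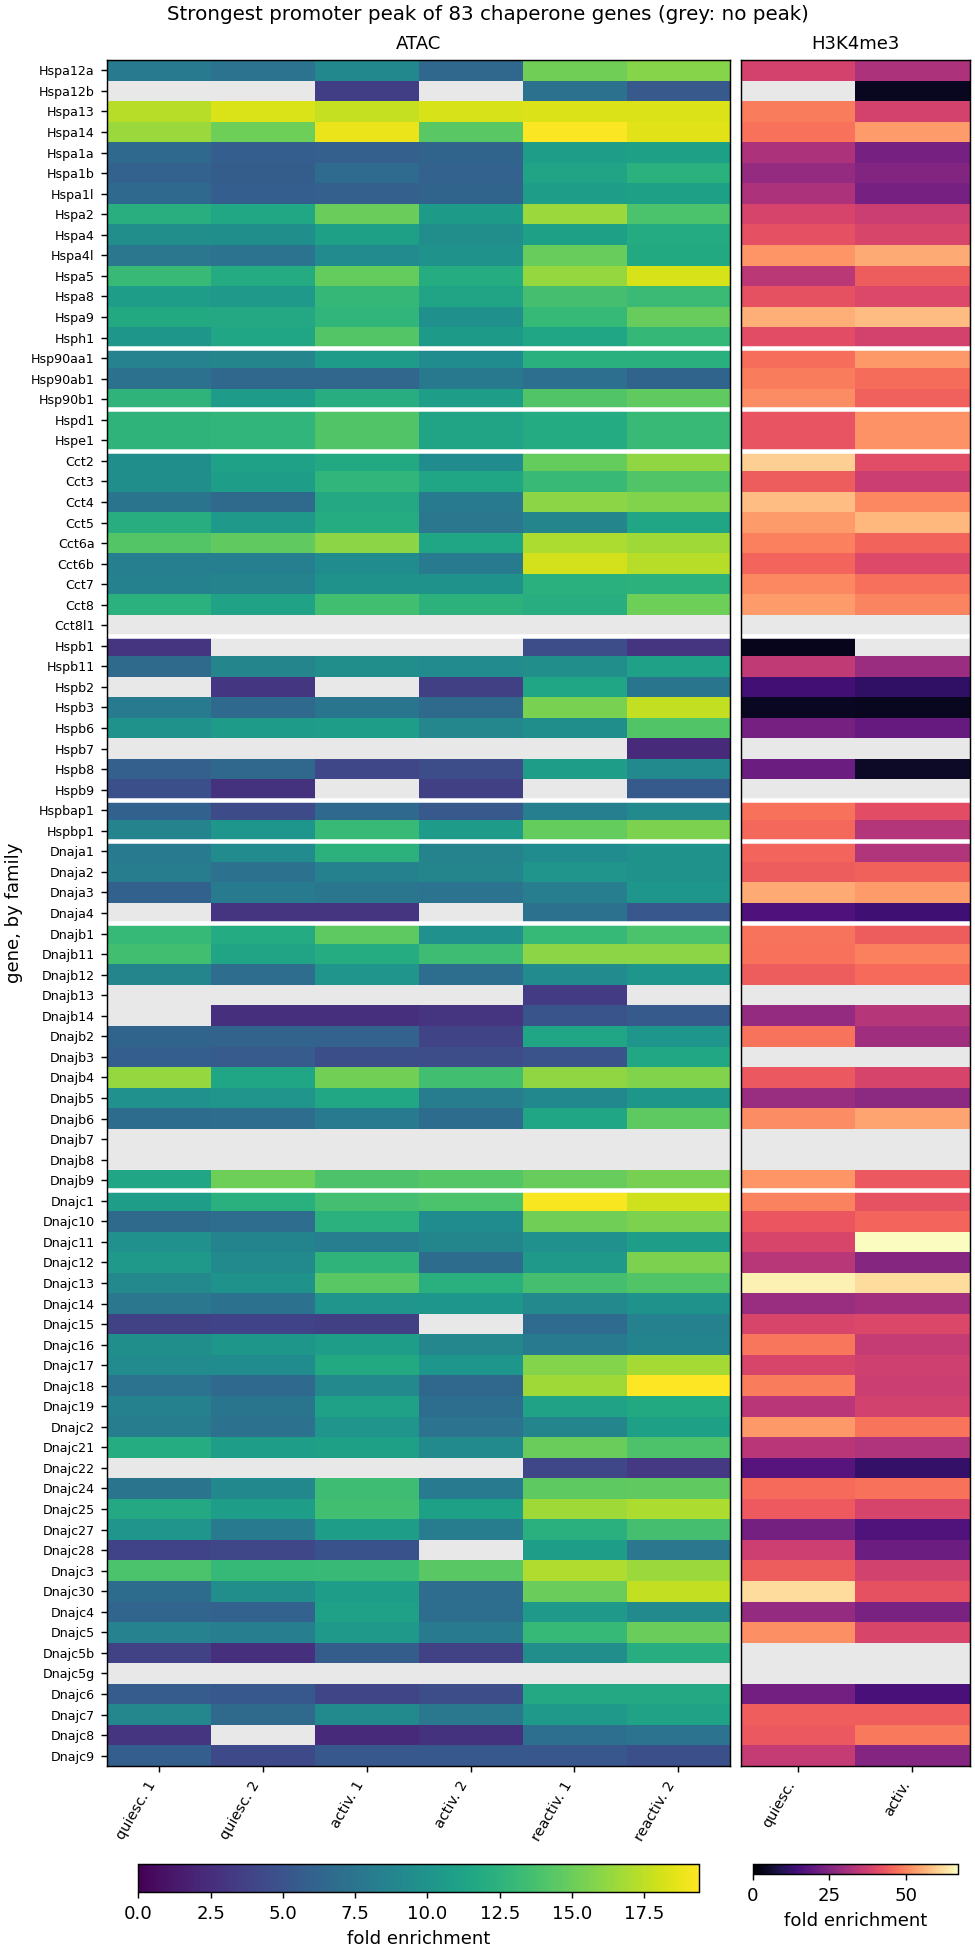
Fold enrichment of the strongest promoter peak of each of the 83 chaperone genes (rows, by family) in the 6 ATAC libraries (left) and the 2 H3K4me3 libraries (right), on linear colour scales that start at 0. Grey cells have no peak: 67 genes have no grey cell in the left panel, and Cct8l1, Dnajb7, Dnajb8 and Dnajc5g are grey throughout.

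Of the 79 members with an ATAC peak in any library, 53 had the summit of their strongest peak within 100 bp of one of their own TSSs, the median distance was 53 bp, and 52 summits lay upstream. Some of these peaks lie at the promoters of 2 genes. The strongest peaks of 25 of the 79 members (31.6%) were also those of another protein-coding gene in every library, which holds for 16.2% of all 14584 genes with a peak, given with no test. For 13 members the TSS of another gene was nearer to the summit than their own. The mitochondrial pair Hspd1 (HSP60) and Hspe1 (HSP10) shares a single peak between divergent starts, and so do Hspa1a and Hspa1l. The values of Hspb2 are those of its neighbour Cryab, itself a small HSP, whose TSS was 31 bp from the summit while the summit lay at -584 bp from that of Hspb2. Hspa14 shares its peak with Cdnf, Cct5 with Fam173b, Cct6a with Psph, Cct6b with Zfp830, Hspa12a with Eno4 and Dnajc30 with Bud23. For Hspa14, Cct6a and Hspa12a the TSS of the other gene was nearer to the summit. A peak of this kind cannot be given to either gene.

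The RefSeq promoter table of GRCm38.p6, the build of mm10, held 68 of the 83 members. It gave 87 member windows and 19258 windows in all, each from 250 bases before a start to 50 after it, and exact motifs were searched on both strands. The heat shock element was searched as alternating inverted GAA units, GAANNTTCNNGAA for 3 units and GAANNTTC for 2 of them, so every 3-unit match holds a 2-unit match. The 3-unit form was in 6 of 87 member windows (6.9%) and in 0.519% of all windows. Those windows belong to Hspd1 and Hspe1, which share 1 site, to Hsph1, whose 2 start sites share 1, and to Dnajb6. The 2-unit form was in 18 windows (20.7%, against 7.18%), including those of Hspa1a, Hspa1b, Hspb1, Hspb8 and Dnaja1. The ER stress response element, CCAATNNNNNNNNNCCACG, was in 3 windows (3.45%, against 0.135%), those of Hspa5, Hsp90b1 and Dnajc3, whose proteins all work in the ER. CCAAT alone, which every ER stress response element holds, was about as frequent as elsewhere, in 39.1% of member windows and 37.6% of all. TATAAA was in 4.6% against 12.2%, and the core of the NRF1 site, GCGCATGC, in 1 member window, that of Cct5 (1.15% against 3.66%). These are matches of letters in overlapping windows of related genes, given with no test.

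The sequences below are those of the ER trio, with the ER stress response elements in capitals. Each is the 250 bases before the TSS, 5′ to 3′ on the gene's strand, in mm10: Hspa5 at chr2:34771840-34772089 on the plus strand, Hsp90b1 at chr10:86705445-86705694 on the minus strand and Dnajc3 at chr14:118937682-118937931 on the plus strand. Hsp90b1 has 2 elements, in opposite orientations.
Hspa5: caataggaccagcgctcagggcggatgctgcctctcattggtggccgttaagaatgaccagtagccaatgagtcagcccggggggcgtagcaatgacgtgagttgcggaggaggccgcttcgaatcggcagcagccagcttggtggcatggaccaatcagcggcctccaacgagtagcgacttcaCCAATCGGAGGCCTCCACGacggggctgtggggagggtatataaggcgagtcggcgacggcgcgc
Hsp90b1: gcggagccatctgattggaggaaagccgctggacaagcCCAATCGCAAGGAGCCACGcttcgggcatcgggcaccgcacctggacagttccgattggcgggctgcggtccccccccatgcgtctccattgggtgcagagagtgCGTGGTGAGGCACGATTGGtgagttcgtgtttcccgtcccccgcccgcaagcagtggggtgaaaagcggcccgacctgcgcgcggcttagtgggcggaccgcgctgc
Dnajc3: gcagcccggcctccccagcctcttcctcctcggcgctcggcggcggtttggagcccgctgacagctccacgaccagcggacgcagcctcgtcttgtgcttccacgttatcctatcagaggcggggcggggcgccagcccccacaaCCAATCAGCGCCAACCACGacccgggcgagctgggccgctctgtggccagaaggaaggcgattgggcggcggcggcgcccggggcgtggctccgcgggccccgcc

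The heat shock elements of cytosolic and mitochondrial members are shown next, because these promoters are the textbook targets of HSF1. The Hspd1 stretch is the 215 bases between the starts of Hspd1 and Hspe1, at chr1:55087933-55088147, read on the minus strand, and its capitals mark a pair of overlapping 3-unit matches. Hspa1a lies at chr17:34972157-34972406 and Hspa1b at chr17:34959239-34959488, both on the minus strand, and Hspb1 at chr5:135887669-135887918 on the plus strand. Capitals there mark 2-unit matches and, in the Hspa1 pair, the CCAAT box as well. The 250 bases of Hspa1a and Hspa1b differ at 3 positions, so reads from these copies may not have been told apart and their values are uncertain.
Hspd1: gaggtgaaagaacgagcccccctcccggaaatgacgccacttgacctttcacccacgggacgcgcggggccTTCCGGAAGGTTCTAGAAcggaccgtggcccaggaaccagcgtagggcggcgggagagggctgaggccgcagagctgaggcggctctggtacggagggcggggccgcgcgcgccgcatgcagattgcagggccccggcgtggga
Hspa1a: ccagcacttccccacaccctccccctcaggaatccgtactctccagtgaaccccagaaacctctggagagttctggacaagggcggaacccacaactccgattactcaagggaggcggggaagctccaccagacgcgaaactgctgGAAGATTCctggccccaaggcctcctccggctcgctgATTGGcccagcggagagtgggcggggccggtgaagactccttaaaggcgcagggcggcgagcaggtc
Hspa1b: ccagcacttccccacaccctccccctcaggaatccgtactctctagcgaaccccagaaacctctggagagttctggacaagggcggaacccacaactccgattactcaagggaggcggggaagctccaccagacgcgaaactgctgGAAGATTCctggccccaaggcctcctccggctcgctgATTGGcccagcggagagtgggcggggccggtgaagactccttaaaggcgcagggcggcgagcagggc
Hspb1: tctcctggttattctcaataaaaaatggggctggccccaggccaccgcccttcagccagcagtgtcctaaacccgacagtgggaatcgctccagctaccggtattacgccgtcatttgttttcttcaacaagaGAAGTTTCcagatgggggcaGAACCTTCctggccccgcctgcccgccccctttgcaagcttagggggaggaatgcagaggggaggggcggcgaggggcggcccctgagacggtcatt

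Among the HSP70 and HSP110 genes, 13 of 14 were open in all 6 libraries. Hspa8, the constitutive cytosolic HSP70, had fold enrichments of 10.9 and 10.5 in the quiescent libraries, 12.9 and 11.3 in the activated ones and 13.7 and 13.2 in the reactivated ones. Hspa5 (BiP), the HSP70 of the ER, was higher than Hspa8 in all 6 libraries, at 13.1 and 11.9, then 14.8 and 12.0, then 16.3 and 18.2. The stress-inducible Hspa1b stood lower, at 6.08 and 5.75 under quiescence, 6.76 and 6.11 in activated and 11.3 and 12.4 in reactivated NSPCs, and its uncertain twin Hspa1a had 6.66 and 5.76, then 5.97 and 6.27, then 10.9 and 11. In all 3 states the inducible genes were therefore open, below the median promoter in each library (0.721 to 0.984 of it for Hspa1b), and for both genes the reactivated values as deposited lay above the other 4. Relative to the median, the Hspa1b difference between reactivated and quiescent NSPCs was 0.34 ± 0.14 (limma, adjusted p = 0.0845). Hspa13, an HSP70-like ATPase of the ER, and Hspa14, which works with a DNAJ partner at the ribosome, were the strongest members of all, at mean percentiles of 99.5 and 99.4. The exception was Hspa12b, a distant relative of the HSP70 genes: it had no peak in quiescent NSPCs, 3.58 in activated replicate 1 alone, and 7.28 and 5.45 in the reactivated libraries. Its H3K4me3 peak was found in activated NSPCs only, at 4.07.

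All 3 HSP90 genes were open in all 6 libraries. Hsp90aa1, the inducible cytosolic form, had 8.63 and 8.84 under quiescence, 10.7 and 9.43 in activated and 12.3 in both reactivated libraries, close to the median promoter throughout. Hsp90ab1, the constitutive form, had 7.31 and 6.48, then 6.44 and 7.84, then 7.07 and 6.23, with no state apart from the others as deposited. Relative to the median promoter, its reactivated values (0.595 and 0.492) lay below all its other values (0.686 to 0.983). Hsp90b1 (GRP94), the ER form, had 12.6 and 10.7, then 12.1 and 10.8, then 14.1 and 14.7.

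Hspd1 and Hspe1, with their shared peak, had 12.6 and 12.8 under quiescence, 14.1 and 11.3 in activated and 11.9 and 13.1 in reactivated NSPCs, so the states overlapped in fold enrichment as deposited. Of 9 genes with a Cct symbol, 8 were open in all 6 libraries and marked by H3K4me3 in both states, with mean percentiles between 89.8 for Cct5 and 98.2 for Cct6a. The one without any peak was Cct8l1, a gene without introns that resembles Cct8. Tcp1, the first subunit of the same ring under another name, also had a peak in all 6, from 14.9 to 18.3.

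Of 8 genes with an Hspb symbol and a digit, 4 were open in all 6 libraries, the small HSPs Hspb3, Hspb6 and Hspb8 and the cilia gene Hspb11. Hspb1 (HSP27) had a peak of 2.89 in quiescent replicate 1, none in quiescent replicate 2 or in either activated library, and 4.6 and 2.93 in the reactivated ones, and its H3K4me3 peak, at 3.65 and 433 bp wide, was in quiescent NSPCs only. The Hspb2 and Cryab peak was in 1 library of each of the first 2 states, at 3.06 in quiescent and 3.71 in activated, and at 11.4 and 7.54 in reactivated NSPCs. Hspb7, a gene of heart and muscle, had a single peak, of 2.39 in reactivated replicate 2, and Hspb9, of testis, had weak peaks in 4 libraries (2.83 to 5.49). The weakest of these peaks lie near the lowest fold enrichment of any member peak, 2.39, so that their absence from another library means not detectable at that depth.

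Hspb8 delivers misfolded proteins to autophagy with BAG3. It had the largest difference of any member between quiescent and activated NSPCs in H3K4me3 and, relative to the median promoter, in ATAC. As deposited, Dnajc10 differed more in ATAC, at 6.7 and 6.95 against 12.4 and 9.41. Hspb8 had 5.98 and 6.59 under quiescence, 4.11 and 4.56 in activated and 10.8 and 9.24 in reactivated NSPCs. The 3 states did not overlap as deposited, with no share of all promoters given for that. Relative to the median promoter of each library the values of Hspb8 were 0.765 and 0.857, then 0.438 and 0.573, then 0.91 and 0.731. On that scale quiescent and reactivated overlapped and activated lay below both. H3K4me3 stood at 21.5 over 4667 bp in quiescent NSPCs and at 5.17 over 662 bp in activated NSPCs. The 250 bases before its TSS, at chr5:116422865-116423114 on the minus strand, hold none of the motifs searched, and a 2-unit heat shock element begins just after the TSS.
Hspb8: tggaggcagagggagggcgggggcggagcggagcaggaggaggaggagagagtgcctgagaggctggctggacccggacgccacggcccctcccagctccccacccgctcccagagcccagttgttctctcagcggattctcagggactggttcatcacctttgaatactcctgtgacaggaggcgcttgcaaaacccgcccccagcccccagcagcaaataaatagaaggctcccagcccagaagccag

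**Figure D2:**
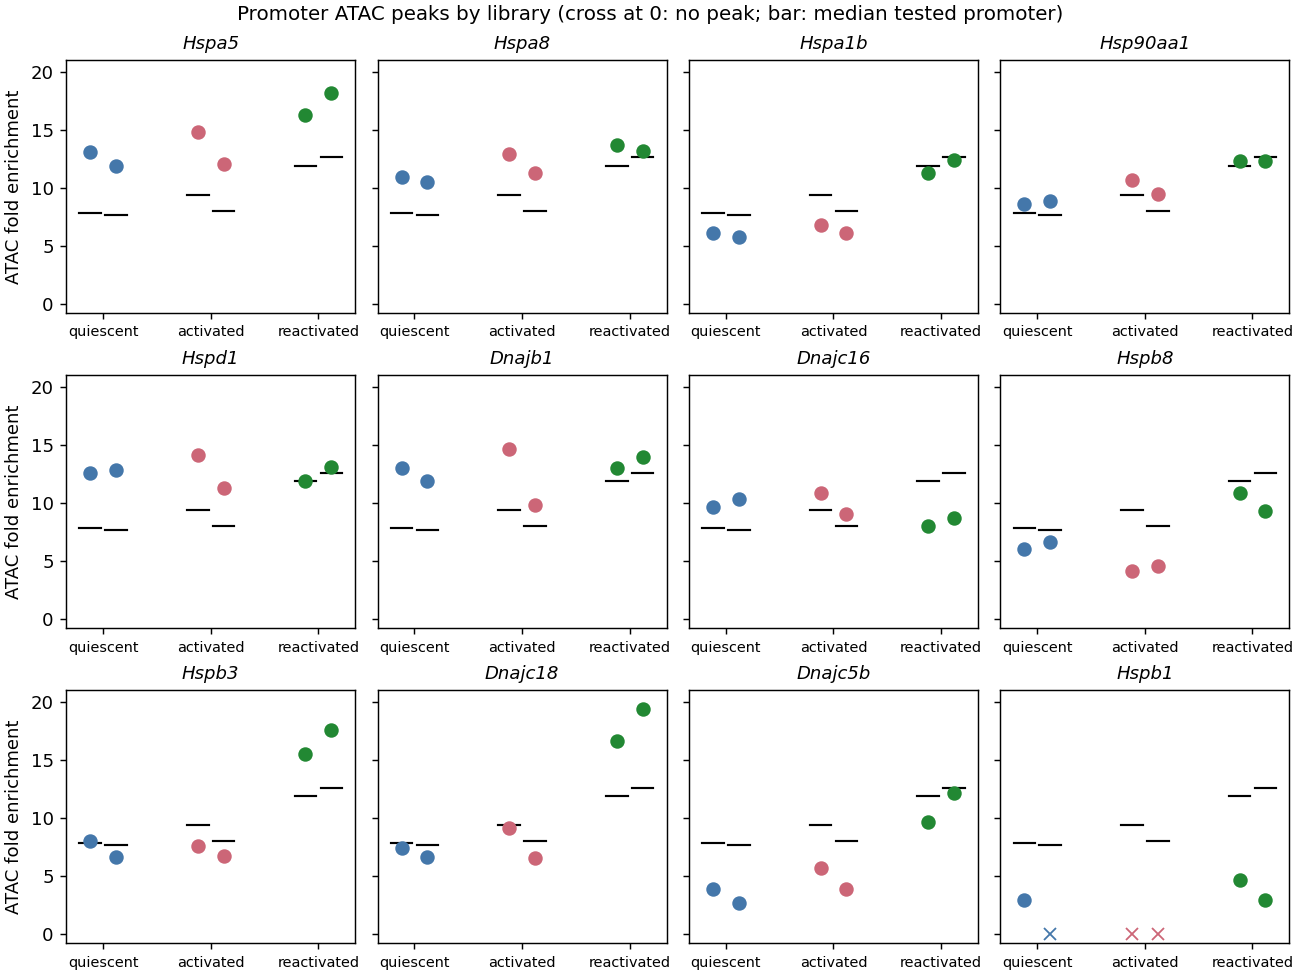
ATAC fold enrichment (linear axis) at 12 chaperone promoters, with 1 point per library, replicate 1 on the left of each pair. Black bars are the median of the 11345 promoters tested in that library, from 7.68 to 12.6, and a cross at 0 is a library with no peak. Hspd1 keeps about the same value while the median moves up in reactivated NSPCs, and Hspb8 is lowest in activated NSPCs.

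DNAJ genes make up the largest group of members. Of 4 DNAJA genes 3 were open in all 6 libraries, of 13 DNAJB genes 9, and of 28 DNAJC genes 23. Dnajb1, the main stress-inducible partner of HSP70, had 13.0 and 11.9 under quiescence, 14.6 and 9.83 in activated and 13.0 and 13.9 in reactivated NSPCs. Its states overlapped as deposited. Relative to the median promoter, its reactivated values (1.09 and 1.1) lay below all its other values (1.23 to 1.67). The highest mean percentiles among them were 98.1 for Dnajc3, a co-chaperone of the ER, and 98.0 for Dnajb4. Other DNAJ genes of the ER included Dnajc1 at 97.8, Dnajb9 at 97.4, Dnajb11 at 97.0, Dnajc10 at 90.6, Dnajc18 at 87.6 and Dnajb12 at 85.1. At the other end, among members open in all 6, stood Dnajc5b (57.4), Dnajc9 (60.8), Dnajb3 (65.8), Dnajc6 (69.9) and Hspb8 (70.3). Of these, Dnajc9 is a chaperone of histones, Dnajc6 (auxilin) takes the clathrin coat off vesicles, and neither Dnajc5b nor Dnajb3 had H3K4me3 in either state.

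Several DNAJ promoters were called in some libraries only. Dnaja4 had no peak in quiescent replicate 1 or activated replicate 2 and otherwise ran from 2.92 to 7.25. Dnajb14, Dnajc15, Dnajc28 and Dnajc8 each lacked a peak in 1 library: Dnajb14 in quiescent replicate 1, Dnajc8 in quiescent replicate 2, and Dnajc15 and Dnajc28 in activated replicate 2. All 4 carried H3K4me3 in both states. Dnajc22 had peaks in the reactivated libraries alone (4.14 and 3.2), although it was marked by H3K4me3 in quiescent (17.8) and activated (12.5) NSPCs. Dnajb13, a component of sperm axonemes, had a single peak, of 3.34 in reactivated replicate 1. No ATAC or H3K4me3 peak was found in any library at 4 members: Cct8l1, Dnajb7, Dnajb8 and Dnajc5g.

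The first comparison asks whether chaperone promoters differed in accessibility between quiescent and activated NSPCs, and no member passed the test. Log2 fold enrichment, centred on the library median, was fitted with limma over the 11345 promoters open in all 6 libraries, with Benjamini-Hochberg adjustment and a threshold of 0.05. Of 67 members tested, 0 were higher in quiescent NSPCs (background 0.564%) and 0 were lower (background 1.07%). At an unadjusted limma p under 0.05 there were 6, with no share of all promoters given for that limit. The largest differences toward quiescent were those of Hspb8 at 0.69 ± 0.18 (SE, adjusted p = 0.0808), Dnajc6 at 0.51 ± 0.16 and Dnajb2 at 0.50 ± 0.17. Toward activated they were those of Dnajc10 at -0.51 ± 0.14 (adjusted p = 0.104), Dnajc5b at -0.39 ± 0.19 and Dnajc4 at -0.35 ± 0.17. Dnajc10, an ER protein that reduces disulfide bonds, stood at 6.7 and 6.95 under quiescence against 12.4 and 9.41 in activated NSPCs, and Dnajc6 had 5.65 and 5.35 against 4.05 and 4.56. Neither pair of states overlapped, with no share of all promoters given for that. The median difference of the members was 0.061 and that of all promoters 0.027. With 2 libraries per state a difference that misses the threshold does not show that the states are alike.

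The next comparison asks how promoters stood after BMP4 was withdrawn. Relative to the median promoter, 15 members were lower in reactivated than in quiescent NSPCs (22.4%, background 13.5%) and 6 were higher (8.96%, background 13.0%). The members that fell relative to the median, 8 of which had a difference above 0 without centring, included the HSP70 exchange factors Hsph1 and Hspa4, Hspa13, Hsp90ab1, Hspd1 with Hspe1, the CCT subunits Cct5, Cct6a and Cct8, and the HSP70 partners Dnaja1 and Dnajb1. Dnajc16, Dnajb5, Dnajc9 and Dnajc11 complete that group. Dnajc5b, Dnajc18, Hspb3, Dnajc10, Cct4 and Cct6b rose, the last with an adjusted p that rounds to 0.05.

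These calls are relative to a median that itself moved. Without centring, 33 members were called higher and 0 lower, and 60 of 67 had a difference above 0. The share of all promoters called in that fit is not given, so these counts do not set members apart from other promoters. The median of all promoters, uncentred, was 0.625 higher in reactivated than in quiescent NSPCs on the log2 scale. The split of 6 higher and 15 lower is thus relative to that shift: without centring all 6 higher members stayed above 0, and of the 15 lower ones 8 lay above 0 and Dnajc16, Cct5, Hsp90ab1, Dnajb5, Hspd1, Hspe1 and Dnajc9 below it, from -0.014 to -0.258. Promoters of high level lay lower in this contrast as a class: with all promoters ranked by mean level into 4 equal classes, the median difference ran from 0.246 in the lowest class to -0.256 in the highest, where 22.4% were called lower, and 25 of the 67 members, 7 of them called lower, were in that highest class. The other 8 lower members were in the class below it (6 of 22, where 14.8% of all promoters were called lower) and in the lowest class (2 of 8, where 6.59% were). From the lowest class to the highest, the member medians were 0.058, -0.214, -0.129 and -0.341. Those of all promoters were 0.246, 0.085, -0.081 and -0.256. Of the 6 higher members, 5 of 22 were in the second highest class, where 6.31% of all promoters were called higher. The remaining 1 was among the 8 of the lowest class, where 28.1% were. With quantile normalization Cct6a, Cct8, Dnajb1, Hspa13, Hspa4 and Hsph1 were no longer called, at adjusted p from 0.0509 to 0.301. With missing peaks set at the lowest value of the library, 4 of 77 members were higher and 13 lower, with no share of all promoters given. Of the 6 higher members Cct4, Cct6b, Dnajc10 and Hspb3 were then no longer called, at limma adjusted p from 0.0562 to 0.0964. Of the 15 lower ones Cct8, Dnaja1 and Dnajc11 were no longer called, at adjusted p from 0.05 to 0.0545. The median over members was -0.247 against -0.037 over all. The part of level in these calls was not tested.

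Dnajc16 had the largest fall, at -0.92 ± 0.14 (limma, adjusted p = 0.0033). Its fold enrichment as deposited was 9.63 and 10.3 under quiescence, 10.8 and 9.00 in activated and 7.97 and 8.72 in reactivated NSPCs, so that both reactivated values were the lowest even before centring. Cct5 followed at -0.82 ± 0.18 (adjusted p = 0.01), from 12.1 and 10.5 in quiescent to 8.85 and 11.5 in reactivated NSPCs, which overlap as deposited. Hsp90ab1 stood at -0.72 ± 0.19 (adjusted p = 0.0208), and Dnajb5, at -0.70 ± 0.15, had 9.82 and 10.1 in quiescent and 9.09 and 10.3 in reactivated NSPCs. The shared Hspd1 and Hspe1 peak went from 1.62 and 1.67 times the median promoter in quiescent to 1.0 and 1.03 times in reactivated NSPCs, a difference of -0.69 ± 0.14 (adjusted p = 0.00782). Hspa13, the strongest promoter of the family, stayed between 17.3 and 18.4 in all 6 libraries and fell by 0.61 relative to the median, with a difference of 0.05 without centring. Dnajb1 fell by 0.55 (adjusted p = 0.0262) relative to the median, and its difference without centring was 0.11. Neither Hspa8 (-0.33 ± 0.14, adjusted p = 0.0931) nor Hspa5 (-0.20 ± 0.14, adjusted p = 0.288) passed.

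On the rising side, Dnajc5b had 3.81 and 2.67 under quiescence, 5.7 and 3.85 in activated and 9.61 and 12.1 in reactivated NSPCs, a difference of 1.09 ± 0.19 from quiescent (adjusted p = 0.00548). This gene is a relative of the synaptic vesicle chaperone Dnajc5 known from testis, and the summit of its peak lay 879 bp inside the gene. Dnajc18, an ER membrane co-chaperone, had 7.36 and 6.65, then 9.11 and 6.56, then 16.6 and 19.4, the highest member value of all, and rose by 0.70 ± 0.15 (adjusted p = 0.00991). Its peak is shared with another protein-coding gene, 1700066B19Rik, and lay at a start inside Dnajc18, not at the 5′ end. With the 5′ end of the gene alone Dnajc18 was not among the members tested. Hspb3, a small HSP of muscle, had 8.02 and 6.65, then 7.56 and 6.7, then 15.5 and 17.6, although its H3K4me3 was among the weakest, at 4.34 and 3.97. In these 3 genes every reactivated value lay above every other, as deposited and relative to the median promoter. They were picked by their call, and the share of all promoters without overlap is not given.

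Against activated NSPCs, 8 members were higher in reactivated NSPCs (11.9%, background 7.05%) and 8 were lower (11.9%, background 5.36%). With missing peaks set at the lowest value of the library, which tests 77 members, the counts were 4 and 4. No share of all promoters is given for that fit. This contrast uses the same reactivated libraries as the last one. Dnajc6 had the largest rise, at 0.94 ± 0.16 (limma, adjusted p = 0.0103), with 11.7 in both reactivated libraries. Hspb3, Dnajc18, Hspb8, Dnajc5b, Dnajb2, Cct6b and Hspa12a were also higher, by 0.51 to 0.71. The 8 lower members were Dnajc16, at -0.75 ± 0.14 (adjusted p = 0.0125), Dnajc9, Dnaja1, Dnajc14, Hspd1 with Hspe1, Dnajb5 and Hsph1. The peak of Dnajc14 is shared with Tmem198b, and its difference of -0.59 (adjusted p = 0.0295) was -0.16 (adjusted p = 0.48) with the 5′ end of the gene alone. Without centring the median of all promoters was 0.476 higher in reactivated NSPCs, and 24 members were called higher and 0 lower. The backgrounds above belong to the centred fit, and the share of all promoters called without centring is not given.

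**Figure D3:**
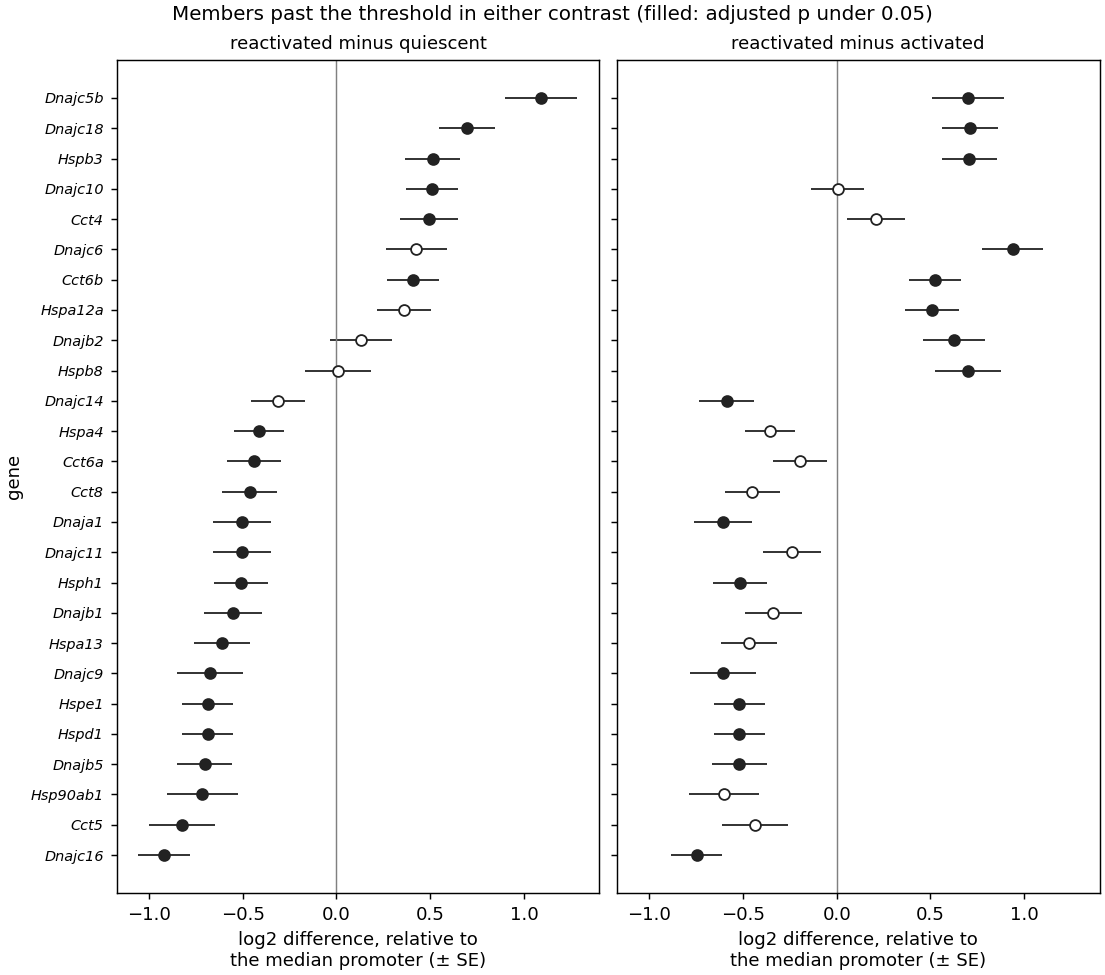
Log2 differences in promoter ATAC fold enrichment, relative to the median promoter, with their SE from limma (horizontal axes), for the 26 members past the threshold in either contrast with reactivated NSPCs. Filled points have an adjusted p under 0.05, 21 on the left and 16 on the right, and both panels use the same reactivated libraries. Without centring no member is called lower in either contrast.

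Both contrasts rest on the pair of reactivated libraries. Without reactivated replicate 1, 2 members were called against quiescent NSPCs and 0 against activated NSPCs, where 21 had an unadjusted p under 0.05. Without reactivated replicate 2 the counts were 4 and 0, with 18 at an unadjusted p under 0.05 in the second. Against quiescent NSPCs, the difference of Dnajc16 was -0.90 without reactivated replicate 1 and -0.94 without reactivated replicate 2. That of Dnajc5b was 1.215 and 0.971. The quiescent peaks of Dnajc5b were weak, at 3.81 and 2.67. With a minimum −log10 q of 10 Dnajc5b was not among the members tested. Without quiescent replicate 1 or 2, 12 and 8 members were called against quiescent NSPCs, and without activated replicate 1 or 2, 7 and 3 against activated NSPCs.

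Most partners of the chaperones were open as well. Of 45 genes listed as co-chaperones and folding factors outside the symbol rule, such as exchange factors, HSP90 partners, prefoldins and ER lectins, 42 were open in all 6 libraries (background 54.5%) and all 45 had H3K4me3 in both states (background 61.1%). In the same fit 0 of the 42 passed between quiescent and activated NSPCs. At an unadjusted limma p under 0.05 there were 4, again with no share of all promoters given. Against quiescent NSPCs 6 were lower in reactivated NSPCs (14.3%, close to the background of 13.5%) and 0 higher (background 13.0%). The 6 were Chordc1 and Ahsa1, partners of HSP90, Stub1, the ubiquitin ligase CHIP, the heat shock factor Hsf2, Tcp1 and the ER disulfide isomerase Pdia4. Chordc1 fell most, at -0.92 ± 0.14 (adjusted p = 0.00361). Against activated NSPCs Chordc1 and Stub1 were lower, or 4.76% against a background of 5.36%, and 0 were higher (background 7.05%). Hsf1 was open in all 6 libraries, from 6.93 to 14.1, and passed in no contrast.

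Most chaperone promoters had H3K4me3 fold enrichments within 1.5-fold of each other in quiescent and activated NSPCs. As each state had a single library, there is no replicate check and no test. Median fold enrichment over marked members was 43.7 in quiescent and 39.0 in activated NSPCs, where all marked promoters had 37.9 and 35.7. The median activated over quiescent ratio was 0.911 for members and 0.923 for all 12705 promoters marked in both. Relative to the latter, 1 of 72 members lay over 1.5-fold above (1.39%, background 1.75%) and 2 below (2.78%, background 2.65%). The member above was Dnajc11, of the mitochondrial membrane, which went from 39.1 to 67.0, or 1.86 times the median ratio. Those below were Hspb8, at 0.26 times, and Dnajc28, from 37.3 to 21.7, at 0.631 times. Hspa5 was within the limit, at 34.4 and 44.2.

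Of the 67 members open in all 6 libraries, 65 had H3K4me3 in both states, the others being Dnajb3 and Dnajc5b. Another 7 were marked in both states but open in fewer libraries. In 9 members no H3K4me3 was found in either state: Dnajb3, Dnajc5b, Dnajb13, Hspb7, Hspb9 and the 4 without any peak. The widest marks were those of Dnajc14 (6462 bp), Hspa5 (6458 bp) and Hspa8 (6049 bp) in quiescent NSPCs and of Hspa8 (5307 bp), Dnajb14 (5259 bp) and the Hspd1 and Hspe1 promoter (5219 bp) in activated NSPCs. The median width over members was 2541 and 2363 bp, and over all marked promoters 2156 and 2048 bp.

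**Figure D4:**
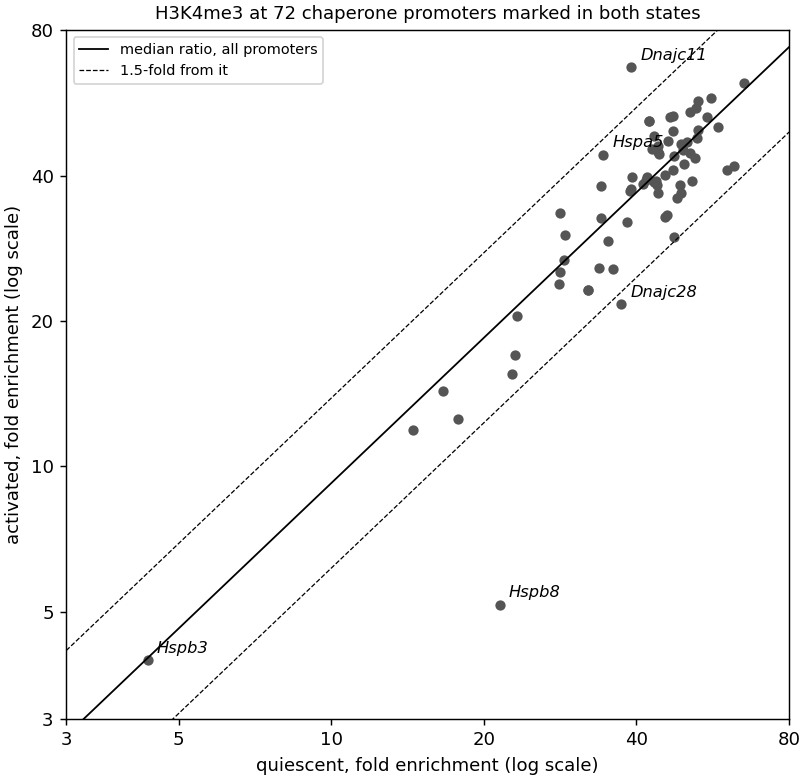
H3K4me3 fold enrichment at the 72 chaperone promoters marked in both states, in quiescent (horizontal) and activated (vertical) NSPCs on log scales, 1 point per gene and 1 library per state. The solid line is the median ratio of all promoters, 0.923, and dashed lines are 1.5-fold from it. Dnajc11 lies above them, Hspb8 far below at 21.5 and 5.17, and Dnajc28 just below.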

How the data were processed

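ATAC-seq peak lists of 6 libraries and H3K4me3 lists of 2 were analysed. By the study's methods and the submitters' processing notes, reads were trimmed (Trim Galore 0.4.0), aligned to mm10 (Bowtie2 2.2.5) and freed of duplicates (Picard 1.88, SAMtools 1.3.1). ATAC peaks were called per library with MACS at an FDR of 0.05, with no control library named. H3K4me3 was called in broad mode against input. Reads of the reactivated libraries were reduced before calling. The fold enrichment the authors deposited is a linear ratio, not scaled between libraries. Both the −log10 p-values and the −log10 q-values, as deposited, compare a peak with its own library and depend on depth. The deposited score equals 10 times −log10 q, rounded down, in every ATAC peak, and was not used otherwise. Read depth is not given in the lists. The background pileup was recovered from fold enrichment and p, which a whole read number matched to within 0.02% in at least 99.83% of the ATAC peaks used, those with −log10 p up to 40. Their number limits precision at low peaks.

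TSSs came from GENCODE M21. Genes were protein-coding there, or in RefSeq where GENCODE gives another class that is not a pseudogene (85 genes, Cct6a among them). An overlap needed 1 bp. limma 3.58.1 (R 4.3.3) fitted 3 states of 2 libraries with no covariate, after a check on simulated data. Alternatives were no centring, quantile normalization, a replicate block, a variance trend, missing peaks at the lowest value, a minimum −log10 q of 10, lists of equal length, summits in the window, windows of 500 bp and 2 kb, the 5′ end alone and each library left out.

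Named were most textbook members, members open in 1 to 5 libraries, those past the limma threshold or else the 3 largest differences each way, the 5 highest and lowest mean percentiles, H3K4me3 in 1 state, the 3 widest marks and members without peaks. Some are given by symbol alone. The textbook members Hspa2, Hspa9, Dnaja2, Dnaja3, Dnajc7, Dnajc19 and Cct2, open in all 6 libraries and called in no contrast, are not described above. Members and lists were chosen with earlier results of these data known. Python 3.11.15, pandas 2.3.3 and scipy 1.17.1 were used.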

Additional observations from a re-analysis of the deposited data

How the results depend on the processing

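The counts of open or marked members stayed within 1.5 times under all alternatives run, 63 to 70 for all 6 libraries. No member was called between quiescent and activated NSPCs in any fit (0 in all, 5 to 8 at an unadjusted limma p under 0.05). Members called in reactivated against quiescent NSPCs were 21, and 33 without centring (33 higher, 0 lower), 15 with quantile normalization (6 and 9) and 27 with a variance trend. Leaving out 1 library gave 2 to 23. Against activated NSPCs they were 16, 24 without centring (24 higher, 0 lower), 8 (4 and 4) with missing peaks at the lowest value, and 0 to 17 with 1 library left out. Those fits assume that the lone library varies like the others. Without centring, 8 members turned from lower to higher against quiescent NSPCs: Cct6a (0.222), Cct8 (0.198), Dnaja1 (0.16), Dnajb1 (0.111), Dnajc11 (0.158), Hspa13 (0.049), Hspa4 (0.25) and Hsph1 (0.153), none of them called. The causes were not tested, apart from the centring, which removes the shift of the median. Replicate numbers did not pair the libraries (correlations of same-numbered deviations -0.0201 to 0.0332). With a replicate block 0, 17 and 12 members were called in quiescent against activated, reactivated against quiescent and reactivated against activated NSPCs. Calls lost under the block included Cct6a, Cct6b, Cct8 and Hspa4 against quiescent NSPCs (limma adjusted p from 0.0507 to 0.063) and Dnajb5 against activated NSPCs (0.0563). H3K4me3 ratios as deposited put 4 members past 1.5-fold. Shares over all promoters are given for peaks and adjusted calls in the main settings only. Member counts from the alternatives, and those at an unadjusted p, therefore have no background beside them. Peaks under 16 to 25 reads of pileup were not detectable.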
